A study of Homo sapiens with 28 samples.

Results

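The 29 genes described here serve cholesterol synthesis, sterol uptake and efflux, and the control of the transcription factor SREBP2. They were taken by name from the 25369 genes in the exon counts of LNCaP cells, a human line from metastatic prostate cancer. RNA was sequenced from 28 libraries in 7 groups of 4, which the labels describe as independent experiments. All cells were reverse transfected with siRNA and harvested 2 days later, after 18 h of treatment. The DMSO control had non-targeting siRNA (siCtrl) and vehicle. The tunicamycin control had siCtrl and 2.5 µg/mL tunicamycin, a drug that blocks N-linked glycosylation and so stresses the endoplasmic reticulum (ER). The PERK inhibitor group had siCtrl, the same dose of tunicamycin and 100 nM GSK2606414. Of the remaining groups, all given tunicamycin, siPERK-1 and siPERK-3 received different oligos against PERK (gene EIF2AK3), and siATF4-2 and siATF4-3 different oligos against ATF4. No siRNA against PERK or ATF4 was given without tunicamycin, so the effects of the siRNAs are described within stressed cells, and all values come from 1 cell line.

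Cholesterol is made in the ER from acetyl-CoA, through mevalonate, farnesyl diphosphate, squalene and lanosterol. SREBP2 is made as a precursor in the ER membrane. When sterols are low, the escort protein SCAP carries it to the Golgi, where proteases release the part that enters the nucleus and raises the genes of synthesis and uptake; when sterols are high, INSIG proteins hold SCAP in the ER. PERK is an ER stress kinase that slows translation and raises translation of the transcription factor ATF4. Prostate cells make cholesterol themselves and also take it up, and it is a precursor of steroid hormones.

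Levels are given as CPM, library-size-scaled counts with TMM factors, and changes as log2 differences with the standard error from edgeR's quasi-likelihood test. A gene is said to have risen or fallen where the Benjamini-Hochberg adjusted p over all 14314 tested genes was below 0.05. Of the 29 genes, 28 were tested. NPC1L1, the intestinal cholesterol importer, had between 0 and 11 counts in a library and did not pass the filter on low counts. It had 0 counts in DMSO control replicate 1 and tunicamycin control replicate 2. There 3 counts, a bound chosen for an observed 0, would be 0.165 and 0.178 CPM.

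The siRNA labels were checked first. EIF2AK3 had 79.9, 95.1, 90.6 and 90.9 CPM in the tunicamycin control. The siPERK-1 libraries had 23.0, 30.4, 21.4 and 23.6 CPM and the siPERK-3 libraries 19.95, 21.9, 19.7 and 24.3 CPM, so both groups lay below every control library and overlapped each other. ATF4 had 1478 to 1561 CPM in the tunicamycin control. It had 221, 194, 176 and 358 CPM with siATF4-2 and 115, 98.4, 102 and 140 CPM with siATF4-3. Its level was higher with siATF4-2 than with siATF4-3 by 1.06 ± 0.16 (adjusted p = 6.1e-05), without overlap. The inhibitor acts on the kinase, so EIF2AK3 RNA, which rose by 0.49 ± 0.06 in that group (adjusted p = 6.09e-08), does not check that label.

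Library totals ran from 10794637 to 17253801 counts, and the 10 most abundant genes took 5.05% to 9.85% of them. The luminal prostate markers KLK3, FOLH1, TMPRSS2, HOXB13, KRT8 and KRT18 each had at least 492 counts in every library, with a summed level of 4566 to 5400 CPM in the DMSO control and 2341 to 3658 CPM in the tunicamycin groups. Among markers of other cells, TP63 (basal) and COL1A2 (fibroblast) were at 0 in all libraries, and KRT5, CD3E, CDH5, DCN and PTPRC reached at most 5 counts. KRT14, LUM, LYZ and PECAM1 reached at most 27 counts, while COL1A1 had 155 to 660 and VWF 108 to 245. The summed endothelial markers had 11.79 to 14.25 CPM in the DMSO control, 10.16 to 11.35 CPM in the tunicamycin control and 10.15 to 11.87 CPM with the inhibitor. They had 12.82 to 13.53 CPM with siPERK-1, 15.23 to 18.94 CPM with siPERK-3, 11.44 to 17.16 CPM with siATF4-2 and 9.706 to 12.79 CPM with siATF4-3. The siPERK-3, siPERK-1 and tunicamycin control libraries thus did not overlap, in the same order as many cholesterol genes below. Most of this sum was 1 gene, VWF, at up to 18.3 CPM, while PECAM1 reached at most 1.84 CPM and CDH5 at most 1 count. Of all 14314 genes, 3758 did not overlap between siPERK-1 and the tunicamycin control, 3801 between siPERK-3 and that control, and 1495 between the oligos. The summed fibroblast markers had 17.11 to 21.23 CPM in the DMSO control, 29.4 to 41.13 CPM over the tunicamycin control, inhibitor and PERK siRNA libraries, and 13.89 to 23.04 CPM with the ATF4 siRNAs. The part of these transcripts in the results was not tested. In RNA from whole cultures, fewer cells of a type and less RNA per cell cannot be told apart. The libraries numbered replicate 4 stood apart for these genes: they held the highest of the 4 values in 119 of 196 sets of gene and group (60.7%), against 28, 31 and 18 sets for replicates 1, 2 and 3. By group this ran from 7 of 28 genes in the DMSO control to 23 of 28 in siATF4-3. The part of this in the results was not tested. Counts over the 28 tested genes are therefore given with and without the 7 libraries of that number. Counts by role and for other gene lists, and shares over all genes, are given with all libraries only.

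The promoters of 5 members whose RNA differed between the groups are shown first, because SREBP2 acts on such sequences together with the factors NF-Y and Sp1. Each stretch is from the RefSeq promoters of GRCh38.p14 and ends just before the most upstream start in RefSeq or GENCODE v29. They are written 5′ to 3′ on the gene's strand, and capitals mark TCACNCCAC, a sterol regulatory element, and CCAAT, the NF-Y box, either of them on either strand (CCAAT reads ATTGG on the other). The windows are chr22:41832929-41833078 (plus strand) for SREBF2, chr7:155297628-155297775 (plus) for INSIG1, chr5:43313513-43313662 (minus) for HMGCS1, chr4:165327473-165327622 (plus) for MSMO1 and chr5:111512591-111512740 (minus) for STARD4.
SREBF2: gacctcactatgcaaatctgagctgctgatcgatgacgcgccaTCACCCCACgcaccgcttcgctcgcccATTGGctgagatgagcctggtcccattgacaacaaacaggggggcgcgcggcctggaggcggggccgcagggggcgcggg
INSIG1: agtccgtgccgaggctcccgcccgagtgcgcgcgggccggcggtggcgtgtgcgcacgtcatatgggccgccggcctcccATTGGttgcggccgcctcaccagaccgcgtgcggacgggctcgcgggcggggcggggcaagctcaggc
HMGCS1: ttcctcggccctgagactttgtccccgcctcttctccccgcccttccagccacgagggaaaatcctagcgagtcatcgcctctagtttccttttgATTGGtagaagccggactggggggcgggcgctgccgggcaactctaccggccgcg
MSMO1: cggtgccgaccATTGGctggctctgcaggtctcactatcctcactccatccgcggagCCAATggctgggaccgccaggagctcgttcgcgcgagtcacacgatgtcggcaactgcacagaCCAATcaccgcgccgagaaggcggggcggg
STARD4: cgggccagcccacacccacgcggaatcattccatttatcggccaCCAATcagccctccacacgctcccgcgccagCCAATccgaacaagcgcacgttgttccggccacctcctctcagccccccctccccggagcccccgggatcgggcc

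Over the 300 bases around each start (250 before and 50 after), 25 of the 29 members had a promoter in the table, with 31 starts in all. ACAT2, FDFT1, SQLE and ABCG1 did not match. TCACNCCAC stood in 1 member, SREBF2, at positions -133 to -125 from the RefSeq start, against 1.13% of 35116 promoters. CCAAT stood in 19 of the 25 members and in 67.7% of their promoters, against 34.6% of all promoters. GGGCGG, the Sp1 box, stood in 23 of the 25 and in 90.3% of their promoters, against 45.0%. The 3 motifs were searched on both strands, and none of them contains another. These shares are descriptions: a match is not a bound site, and other forms of the sterol regulatory element were not searched.

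To compare genes, levels were divided by the length of the exon model. In the tunicamycin control FDFT1, squalene synthase, led with 83.2 CPM per kb, followed by FDPS with 70.5 and SREBF2 itself with 68.0. In the order of the 29 levels, 20 of 28 neighbouring pairs lay within their SDs of each other. In the siPERK-3 group FDFT1 had 214 CPM per kb, FDPS 133, MSMO1 117, INSIG1 109, DHCR7 108 and HMGCS1 103. At the other end ABCA1 had between 0.0688 and 0.164 CPM per kb as a group mean and NPC1L1 between 0.0277 and 0.112. The siPERK-3 group had the highest mean of the 7 groups for 18 of the 28 tested genes, the DMSO control for 6 and the inhibitor group for 2. The same count was not made over all genes.

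**Figure D1:**
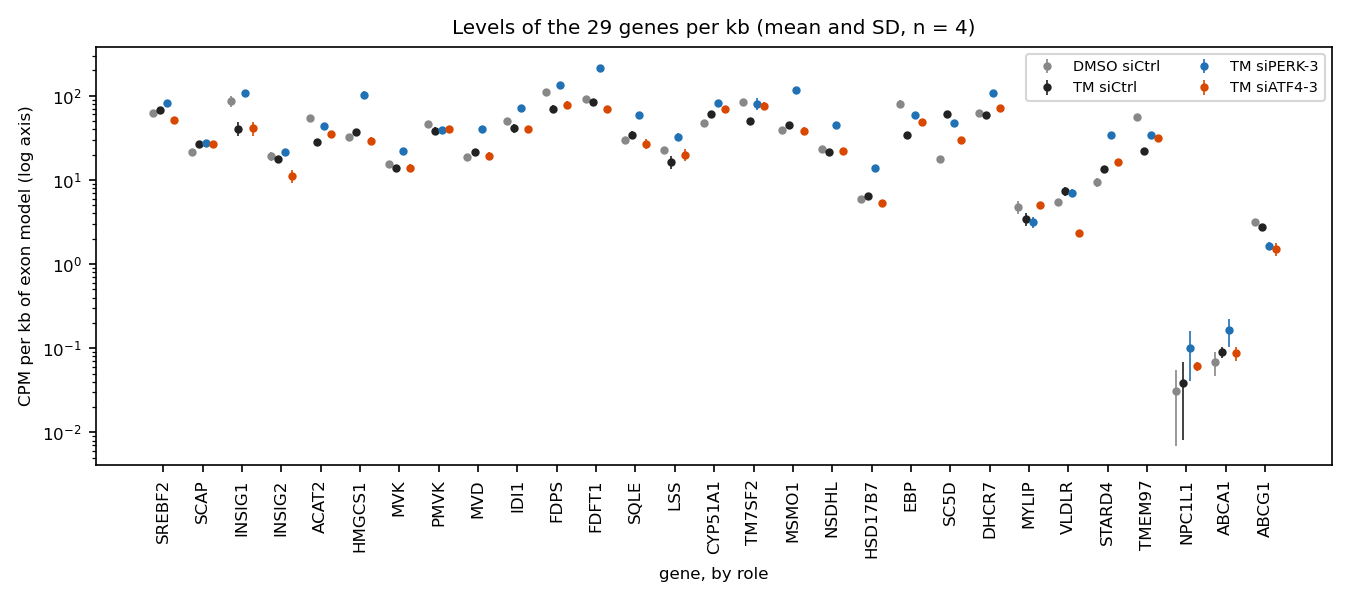
Levels of all 29 genes in CPM per kb of exon model on a log axis, as mean and SD of 4 libraries, for the DMSO control, the tunicamycin control, siPERK-3 and siATF4-3. FDFT1 is highest with siPERK-3 (214 CPM per kb), and NPC1L1 and ABCA1 lie below the rest in all 4 groups.

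Tunicamycin against DMSO, both with siCtrl, moved the cholesterol genes in both directions. Of the 28 tested, 7 rose and 10 fell, which is 25.0% and 35.7%. Over all genes tested, 34.3% rose and 34.7% fell, so the falling share was near the background and the rising share below it. The median change was -0.12, against 0.0066 over all genes. Without replicate 4 of every group, 8 rose and 13 fell.

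Among the regulators, INSIG1 fell with tunicamycin. INSIG1 (chr7:155089486-155101945, plus strand, hg19, 7 exon blocks) had 289, 313, 248 and 222 CPM in the DMSO control and 114, 120, 107 and 159 CPM in the tunicamycin control. The groups did not overlap, and the highest tunicamycin library was replicate 4. The change was -1.10 ± 0.15 (adjusted p = 1.19e-06, edgeR). SCAP rose by 0.29 ± 0.05, without overlap of the groups. SREBF2 (chr22:42229083-42303312, plus strand, hg19) had 366, 389, 346 and 339 CPM with DMSO and 410, 382, 377 and 405 CPM with tunicamycin. These overlapped, and the difference of 0.13 ± 0.06 had an adjusted p of 0.0484, which was up to 0.15 under other settings and 0.0814 without replicate 4 of every group. INSIG2 did not pass the test (-0.11 ± 0.13).

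Of the 7 genes from acetyl-CoA to farnesyl diphosphate, 4 fell and none rose, against 34.7% and 34.3% of all genes. ACAT2, the thiolase that starts the pathway, fell by 0.94 ± 0.06. FDPS, which makes farnesyl diphosphate, fell by 0.65 ± 0.09, IDI1, the isomerase before it, by 0.30 ± 0.09, and PMVK, a kinase of the middle steps, by 0.28 ± 0.07. HMGCS1, the synthase that forms HMG-CoA, had 190, 175, 166 and 167 CPM with DMSO and 190, 196, 197 and 228 CPM with tunicamycin. Its difference of 0.22 ± 0.11 did not pass (adjusted p = 0.0925) although the groups did not overlap, and did pass without replicate 4 of every group (adjusted p = 0.0428). MVK and MVD, a kinase and a decarboxylase, did not pass either (-0.15 ± 0.09 and 0.20 ± 0.10); MVD did pass without replicate 4 of every group (adjusted p = 0.0137).

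Of the 11 genes from squalene to cholesterol, 3 rose and 3 fell, both smaller shares than the 34.3% and 34.7% of all genes. SC5D, the desaturase near the end of the pathway, had the largest rise of the 28 genes. SC5D (chr11:121163388-121184119, plus strand, hg19) had 130, 129, 127 and 123 CPM with DMSO and 419, 449, 459 and 423 CPM with tunicamycin. No library of the 2 groups came near the other group, and the change was 1.78 ± 0.05 (adjusted p = 3.87e-28). CYP51A1, the lanosterol demethylase, rose by 0.38 ± 0.05. SQLE, squalene epoxidase, rose by 0.20 ± 0.09 with an adjusted p of 0.0458 that went up to 0.174 under other settings. EBP, a sterol isomerase, fell from 92.9 to 39.1 CPM on average (-1.25 ± 0.07). TM7SF2, a sterol reductase, fell by 0.77 ± 0.11 and LSS, lanosterol synthase, by 0.50 ± 0.13. FDFT1, MSMO1, NSDHL, HSD17B7 and DHCR7 did not pass, with differences between -0.13 and 0.19. FDFT1 (-0.24), NSDHL (-0.15) and DHCR7 (-0.13) did pass without replicate 4 of every group.

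TMEM97, an ER protein tied to sterol transport, had the largest fall of the 28 genes. It had 127, 141, 157 and 143 CPM with DMSO and 54.6, 61.2, 56.7 and 56.7 CPM with tunicamycin, which is -1.31 ± 0.06 (adjusted p = 3.93e-22). STARD4, a cytosolic sterol carrier, rose by 0.53 ± 0.09 and VLDLR, a lipoprotein receptor, by 0.45 ± 0.09. MYLIP, a ubiquitin ligase that degrades lipoprotein receptors, fell by 0.47 ± 0.12. ABCA1 and ABCG1, which export cholesterol to lipoproteins, did not pass (0.38 ± 0.30 and -0.18 ± 0.11).

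**Figure D2:**
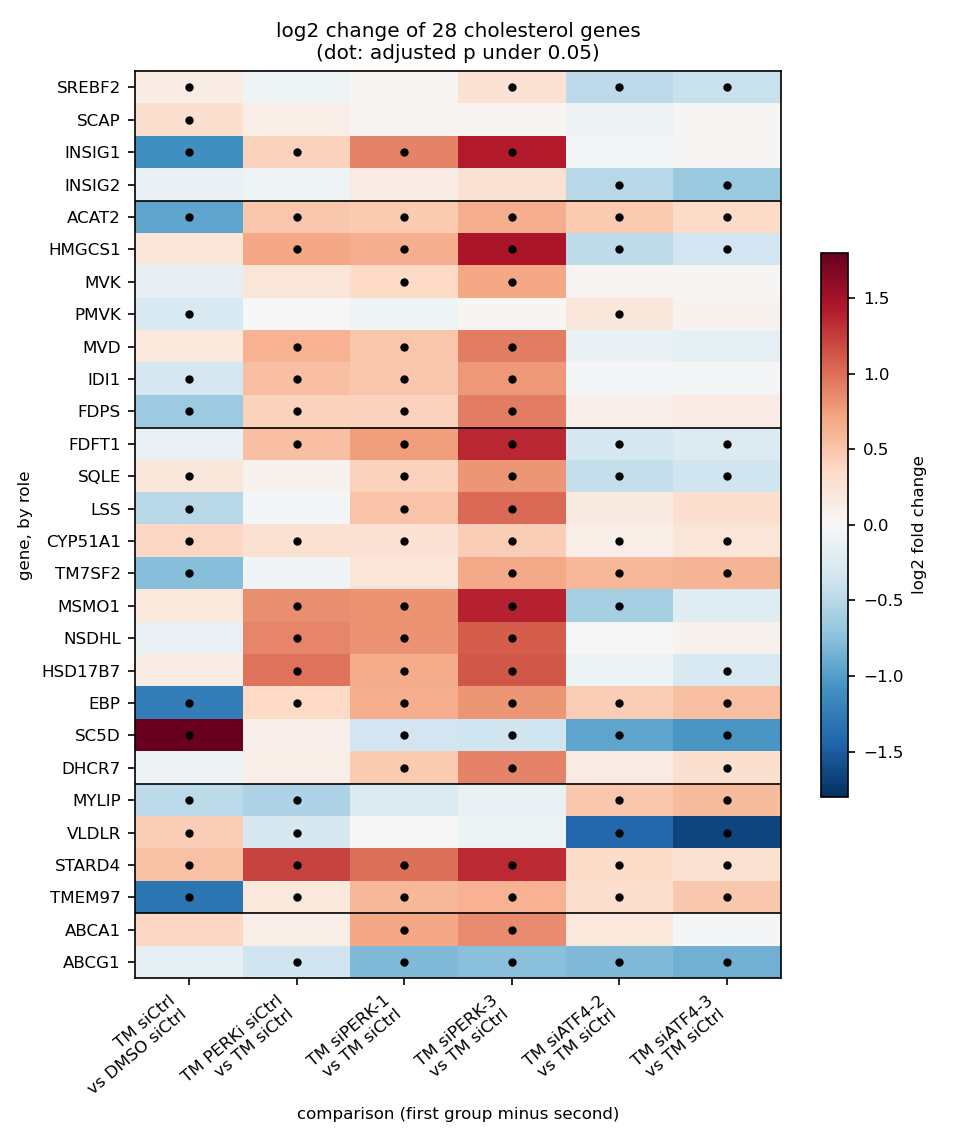
log2 change of the 28 tested genes (rows, by role) in 6 comparisons (columns), red for higher and blue for lower in the first group, with a dot where the adjusted p was below 0.05. The siPERK-3 column holds 21 rises and 2 falls, the siPERK-1 column 19 and 2, and the tunicamycin column 7 and 10.

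Most cholesterol genes were higher with either PERK siRNA than in the tunicamycin control. With siPERK-1, 19 of 28 rose and 2 fell, against 13.1% and 13.3% of all genes. With siPERK-3, 21 rose and 2 fell, against 13.1% and 13.7%. The median change over the 28 was 0.47 and 0.79, against 0.0034 and 0.0018 over all genes. Both comparisons share the tunicamycin control libraries. The counts were the same, 19 and 2 and 21 and 2, without replicate 4 of every group.

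INSIG1 had 228, 231, 218 and 255 CPM in the siPERK-1 libraries and 355, 328, 320 and 342 CPM with siPERK-3, against 107 to 159 CPM in the tunicamycin control. All 8 siRNA libraries lay above the 4 controls. The changes were 0.90 ± 0.15 (adjusted p = 0.000141) and 1.43 ± 0.15 (adjusted p = 3.33e-07). The siPERK-3 libraries also lay above the 4 DMSO libraries, whose highest was 313 CPM. SREBF2 had 392, 410, 399 and 409 CPM with siPERK-1, overlapping the control (0.03 ± 0.06). With siPERK-3 it had 473, 462, 466 and 475 CPM and rose by 0.25 ± 0.06. SCAP and INSIG2 did not pass with either oligo.

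Of the 7 genes of the mevalonate arm, 6 rose with each oligo. HMGCS1 (chr5:43287572-43313614, minus strand, hg19) had 301, 286, 306 and 383 CPM in the siPERK-1 libraries and 606, 487, 551 and 598 CPM with siPERK-3. Each siRNA library exceeded the highest control, 228 CPM, and the siPERK-3 libraries exceeded the siPERK-1 libraries. Its changes were 0.65 ± 0.11 and 1.47 ± 0.11. FDPS rose by 0.41 ± 0.09 and 0.92 ± 0.09, MVD by 0.50 ± 0.10 and 0.91 ± 0.09, IDI1 by 0.49 ± 0.09 and 0.78 ± 0.09, MVK by 0.36 ± 0.09 and 0.69 ± 0.09, and ACAT2 by 0.47 ± 0.06 and 0.65 ± 0.06, with siPERK-1 and siPERK-3 in turn. PMVK did not pass (-0.08 ± 0.07 and 0.03 ± 0.07).

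Of the 11 genes from squalene on, 9 rose with siPERK-1 and 10 with siPERK-3. FDFT1 had 609, 646, 562 and 639 CPM in the siPERK-1 libraries and 1013, 928, 908 and 905 CPM with siPERK-3, against 330 to 413 CPM in the tunicamycin control. The 3 groups did not overlap. Its changes were 0.75 ± 0.08 and 1.36 ± 0.09. MSMO1, the methylsterol oxidase (chr4:166248818-166264314, plus strand, hg19), had 154, 171, 164 and 210 CPM in the siPERK-1 libraries and 268, 243, 268 and 263 CPM with siPERK-3, against 92.5 to 112 CPM in the control. Again the 3 groups stood apart, with changes of 0.81 ± 0.10 and 1.39 ± 0.10. NSDHL and HSD17B7, which act with MSMO1 in removing methyl groups, rose by 0.81 ± 0.06 and 0.67 ± 0.09 with siPERK-1 and by 1.09 ± 0.06 and 1.11 ± 0.09 with siPERK-3. LSS rose by 0.52 ± 0.13 and 1.01 ± 0.13, DHCR7, the last reductase, by 0.47 ± 0.08 and 0.90 ± 0.08, SQLE by 0.41 ± 0.09 and 0.79 ± 0.09, EBP by 0.65 ± 0.07 and 0.80 ± 0.07, and CYP51A1 by 0.26 ± 0.05 and 0.44 ± 0.05. TM7SF2 rose with siPERK-3 (0.69 ± 0.11) and did not pass with siPERK-1 (0.22 ± 0.11, adjusted p = 0.155). SC5D went the other way: it fell by 0.35 ± 0.05 with siPERK-1 and by 0.36 ± 0.05 with siPERK-3.

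Among the transport genes, STARD4 had 58.9, 60.3, 58.6 and 66.8 CPM in the siPERK-1 libraries and 86.6, 74.3, 74.8 and 75.3 CPM with siPERK-3, against 29.5 to 31.8 CPM in the tunicamycin control. The 3 groups did not overlap, and the changes were 0.99 ± 0.08 and 1.34 ± 0.08. TMEM97 rose by 0.60 ± 0.06 and 0.62 ± 0.06 and stayed below its DMSO level (142 CPM) at 86.9 and 88.1 CPM on average. MYLIP and VLDLR did not pass with either oligo. ABCG1 fell by 0.79 ± 0.13 and 0.75 ± 0.13. ABCA1, at 0.95 CPM in the control, had 1.53 CPM in the siPERK-1 group and 1.72 CPM with siPERK-3, with adjusted p of 0.0457 and 0.0156 that went up to 0.131 and 0.118 under other settings.

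**Figure D3:**
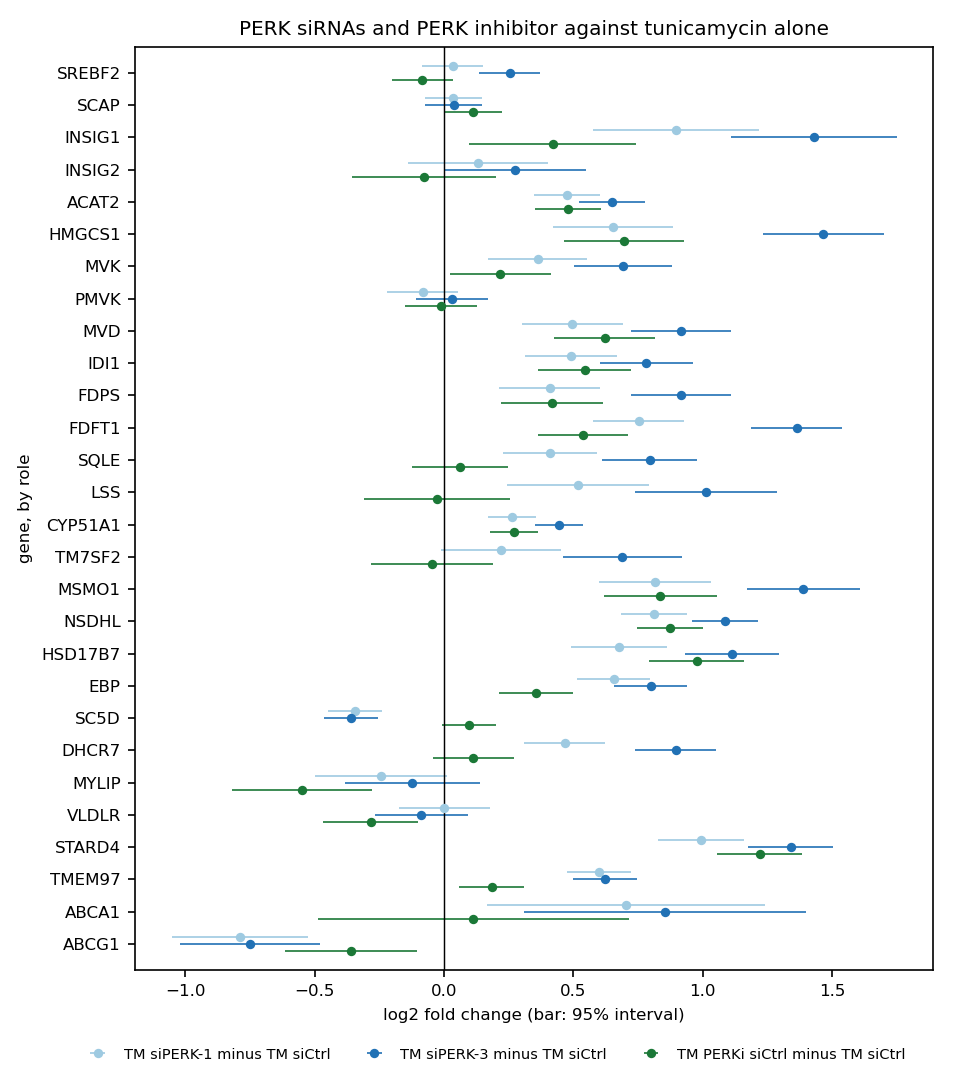
log2 change against the tunicamycin control for the 28 tested genes with siPERK-1 (light blue), siPERK-3 (dark blue) and the PERK inhibitor (green), with 95% intervals. HMGCS1, FDFT1 and MSMO1 lie further right with siPERK-3 (1.47, 1.36 and 1.39) than with siPERK-1 (0.65, 0.75 and 0.81).

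The PERK oligos were compared directly, without the control. Of the 28 genes, 17 were lower with siPERK-1 than with siPERK-3 and none was higher. Over all genes 2.49% were lower and 2.24% higher. None was higher at an unadjusted p below 0.05 either, and DESeq2 and limma-voom also called 0 higher. The median difference was -0.28, against 1e-04 over all genes. The 17 comprised SREBF2 and INSIG1, 5 of 7 genes of the mevalonate arm, 9 of 11 from squalene on, and STARD4.

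HMGCS1 differed most, by -0.81 ± 0.11 (adjusted p = 4.64e-05), with siPERK-1 libraries at 286 to 383 CPM and siPERK-3 libraries at 487 to 606 CPM. FDFT1 followed with -0.61 ± 0.08 (adjusted p = 3e-05), MSMO1 with -0.57 ± 0.10, INSIG1 with -0.53 ± 0.15 and FDPS with -0.51 ± 0.09. LSS differed by -0.50 ± 0.13, TM7SF2 by -0.47 ± 0.11, HSD17B7 by -0.44 ± 0.09, DHCR7 by -0.43 ± 0.08, MVD by -0.42 ± 0.09 and SQLE by -0.38 ± 0.09. STARD4 (-0.35 ± 0.08), MVK (-0.33 ± 0.09), IDI1 (-0.29 ± 0.09), NSDHL (-0.27 ± 0.06), SREBF2 (-0.22 ± 0.06) and CYP51A1 (-0.18 ± 0.05) differed less. Of the 17, only IDI1 had overlapping groups. The groups did not overlap for 16 of the 28 tested genes, against 1495 of all 14314. The calls of INSIG1 (adjusted p = 0.0444) and IDI1 (adjusted p = 0.0492) were the least stable: each was lost in 10 of 15 other settings, among them upper-quartile scaling, no filter and each siPERK-3 replicate left out, with adjusted p up to 0.132 and 0.157. MVK was lost in 6 settings, LSS in 5, SREBF2 and TM7SF2 in 3 and CYP51A1 in 1, without siPERK-3 replicate 1.

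SCAP, INSIG2, ACAT2, PMVK, EBP, SC5D, MYLIP, VLDLR, TMEM97, ABCA1 and ABCG1 did not pass. Their 95% intervals bound the difference to different degrees. For SC5D, which fell with both oligos, the interval was -0.09 to 0.12. For TMEM97 it was -0.14 to 0.10, for EBP -0.28 to -0.0059 and for ABCA1 -0.65 to 0.35.

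EIF2AK3 averaged 24.6 CPM in the siPERK-1 group against 21.5 CPM in the siPERK-3 group, a difference of 0.20 ± 0.08 that did not pass (adjusted p = 0.195). ATF4 averaged 1414 against 1157 CPM, without overlap of the libraries, and its difference of 0.29 ± 0.15 did not pass (adjusted p = 0.337). That test uses a spread shared by all 7 groups. The SDs of ATF4 were 40.4 and 42.6 CPM here, and 82.3 CPM on a mean of 237 CPM with siATF4-2. The p-value thus does not show that ATF4 RNA was alike with the PERK oligos. Library totals did not overlap either, at 13253835 to 16789370 counts with siPERK-1 and 12251524 to 12606231 with siPERK-3. The part of these differences in the result was not tested. Without replicate 4 of every group, 18 genes were lower and 0 higher. Leaving out siPERK-1 replicate 3 alone left 11 of the 17 calls; SREBF2, INSIG1, MVK, IDI1, LSS and TM7SF2 were lost, with adjusted p from 0.0548 to 0.157.

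**Figure D4:**
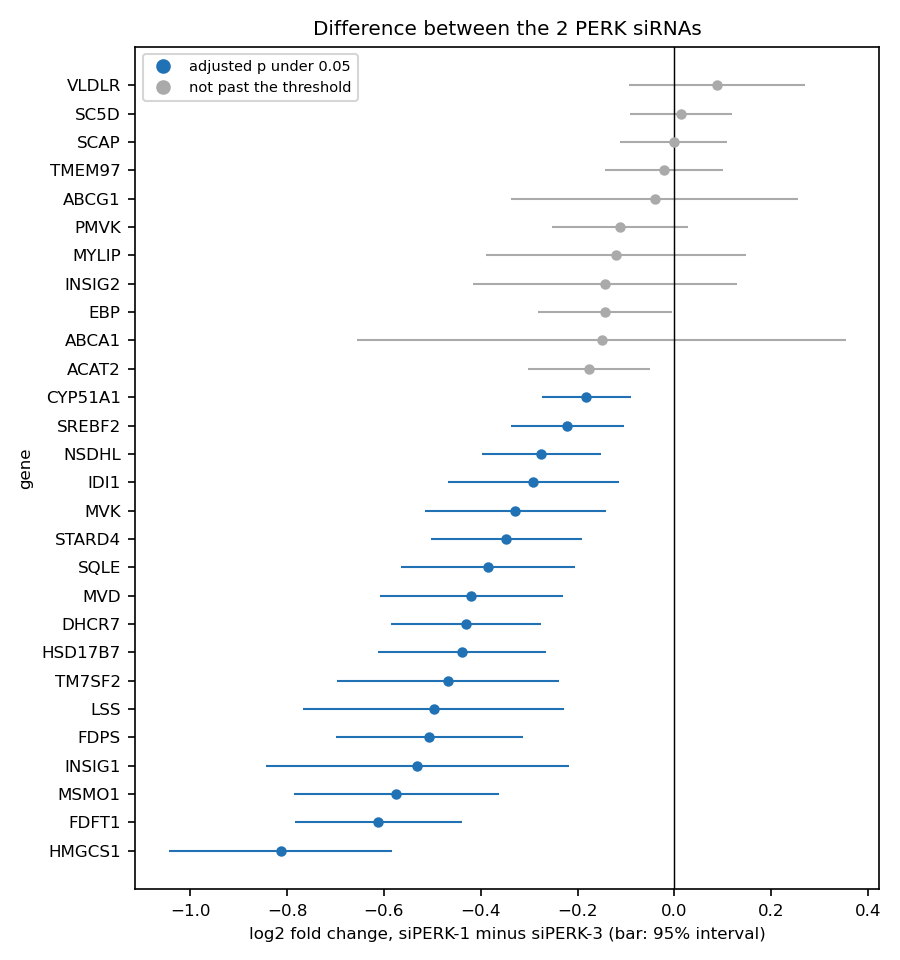
log2 difference between the PERK siRNAs (siPERK-1 minus siPERK-3) for the 28 tested genes, with 95% intervals, blue where the adjusted p was below 0.05 and grey otherwise. The 17 blue points all lie left of 0, from HMGCS1 at -0.81 to CYP51A1 at -0.18.

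With the PERK inhibitor, against the same tunicamycin control, 14 of 28 rose and 3 fell, with 18.2% and 17.5% over all genes. The median change was 0.20, against -0.0049 over all genes. The counts were 15 and 2 without replicate 4 of every group. In the mevalonate arm 5 of 7 rose, among them HMGCS1 with 337, 305, 319 and 355 CPM (0.70 ± 0.11), MVD (0.62 ± 0.10) and IDI1 (0.54 ± 0.09). From squalene on, 6 of 11 rose: FDFT1 (0.54 ± 0.08), CYP51A1 (0.27 ± 0.05), MSMO1 (0.84 ± 0.11), NSDHL (0.87 ± 0.06), HSD17B7 (0.98 ± 0.09) and EBP (0.355 ± 0.07). ACAT2 (0.48 ± 0.06) and FDPS (0.42 ± 0.09) made up the rest of the 5, and TMEM97 rose by 0.18 ± 0.06.

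STARD4 rose most, from 29.5 to 31.8 CPM in the control to 82.3, 65.2, 64.6 and 74.7 CPM (1.22 ± 0.08, adjusted p = 2.11e-14). INSIG1 had 176, 168, 162 and 164 CPM, all above the control's highest value of 159 CPM by a small margin. Its change of 0.42 ± 0.16 had an adjusted p of 0.0387 that went up to 0.115 under other settings. MYLIP fell by 0.55 ± 0.13, VLDLR by 0.28 ± 0.09 and ABCG1 by 0.36 ± 0.13. The VLDLR call was lost without replicate 4 of every group (adjusted p = 0.0638). The ABCG1 call was lost without tunicamycin control replicate 1, inhibitor replicate 2 or inhibitor replicate 3 (adjusted p up to 0.112), and the TMEM97 call without the first or the second of these (up to 0.0974). SQLE, LSS, TM7SF2, SC5D and DHCR7 did not pass, with values from -0.05 to 0.11.

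Against siPERK-1, the inhibitor group was higher for 4 genes and lower for 8, with 23.2% and 24.1% over all genes. The lower share, 28.6% of the 28, was thus near the background, and the higher share, 14.3%, below it. The median was -0.06, against -0.0111 over all genes. The counts were 5 and 10 without replicate 4 of every group. None of the 7 genes of the mevalonate arm passed. HMGCS1 differed by 0.04 with an interval of -0.19 to 0.27 and MSMO1 by 0.02 with an interval of -0.19 to 0.23. SC5D (0.44 ± 0.05), ABCG1 (0.43 ± 0.14), HSD17B7 (0.30 ± 0.09) and STARD4 (0.23 ± 0.08) were higher with the inhibitor. LSS (-0.55 ± 0.13), INSIG1 (-0.48 ± 0.15), TMEM97 (-0.42 ± 0.06), DHCR7 (-0.35 ± 0.08), SQLE (-0.35 ± 0.09), EBP (-0.30 ± 0.07), VLDLR (-0.28 ± 0.09) and FDFT1 (-0.21 ± 0.08) were lower. The FDFT1 call had an adjusted p of 0.0388, up to 0.107 under other settings. Single libraries also ended the calls of VLDLR (siPERK-1 replicate 2, adjusted p = 0.0539), STARD4 (inhibitor replicate 1, 0.0977) and ABCG1 (inhibitor replicate 4, 0.118).

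Against siPERK-3, 21 genes were lower with the inhibitor and 2 higher, with 23.6% and 23.4% over all genes. The median was -0.39, against -0.0045 over all genes. The lowest differences were in LSS (-1.04 ± 0.13), INSIG1 (-1.01 ± 0.15), FDFT1 (-0.83 ± 0.08) and DHCR7 (-0.78 ± 0.08). SC5D (0.46 ± 0.05) and ABCG1 (0.39 ± 0.14) were higher. Without replicate 4 of every group 20 were lower and 1, SC5D, was higher. Leaving out either inhibitor replicate 4 or siPERK-3 replicate 3 also left 1 higher. Among the 21, the calls of INSIG2, ACAT2, MVD, IDI1, MYLIP and ABCA1 were each lost when some single library was left out, and over all settings the adjusted p reached 0.164 (ABCA1). The inhibitor arm had siCtrl and a drug where the oligo arms had another siRNA and none, so drug and siRNA effects cannot be told apart here.

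**Figure D5:**
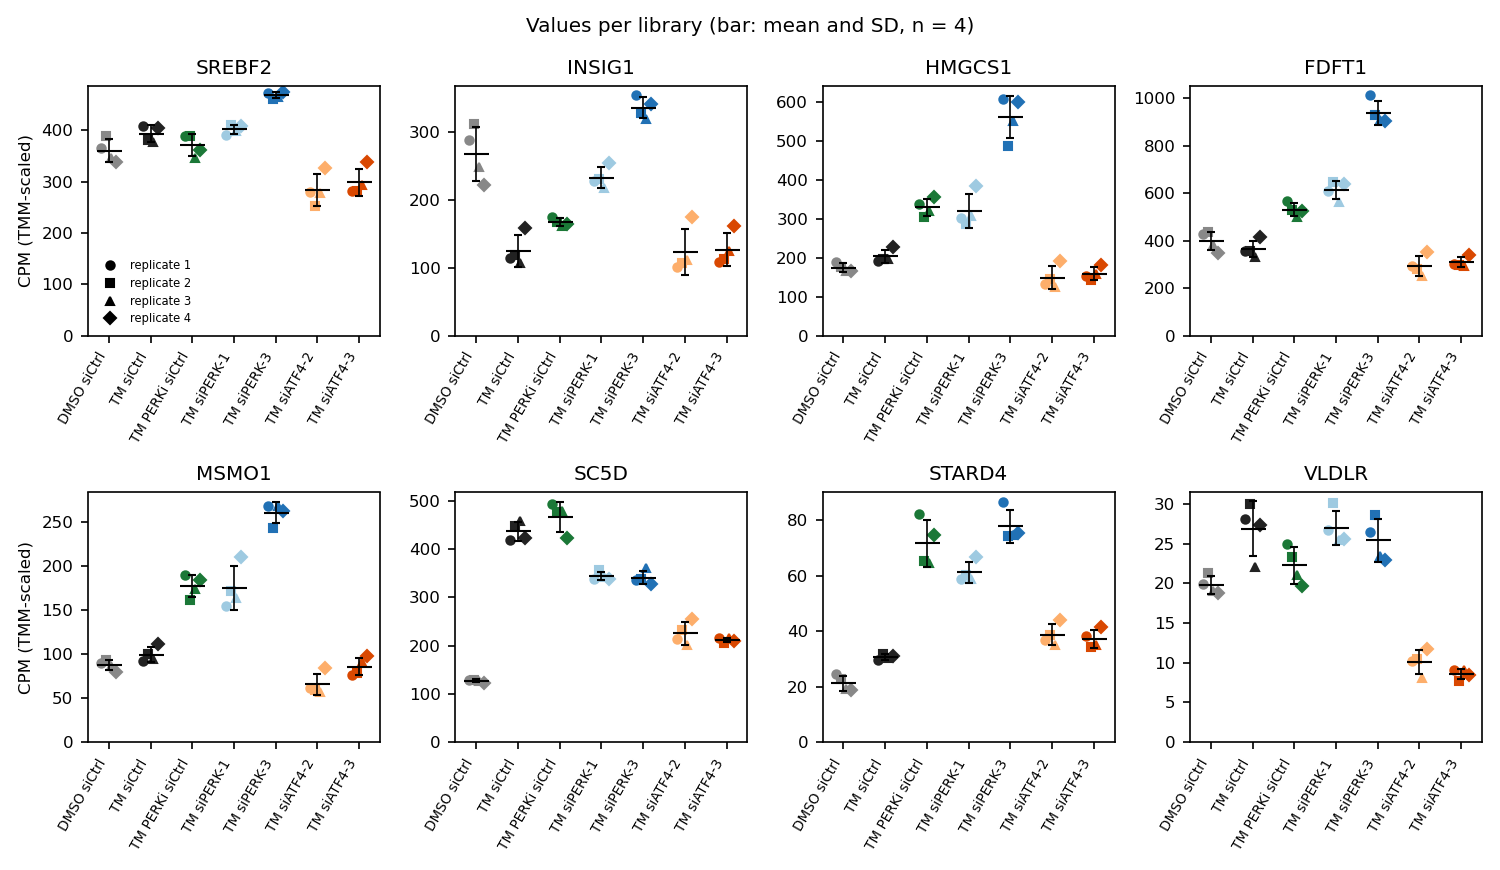
CPM in each library for 8 genes by group, with the mean and SD of 4 libraries as bars and a marker shape for each replicate number. INSIG1, HMGCS1, FDFT1 and MSMO1 are highest with siPERK-3, SC5D is lowest in the DMSO control (123 to 130 CPM), and VLDLR is lowest with the ATF4 siRNAs.

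With the ATF4 siRNAs, against the same tunicamycin control, 8 of 28 genes rose and 9 fell with each oligo. Over all genes, 28.4% rose and 27.2% fell with siATF4-2, and 31.2% and 30.7% with siATF4-3, so both counts were near the background. The median changes over the 28 were -0.01 and 0.02, against -5e-04 and -0.0015 over all genes. Without replicate 4 of every group, 8 rose and 10 fell with siATF4-2, and 10 and 11 with siATF4-3.

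SREBF2 had 279, 252, 277 and 327 CPM with siATF4-2 and 282, 282, 294 and 338 CPM with siATF4-3, all below the lowest control of 377 CPM. It fell by 0.47 ± 0.06 and 0.40 ± 0.06. INSIG2 fell by 0.50 ± 0.14 and 0.66 ± 0.14. INSIG1 did not pass (-0.02 ± 0.16 and 0.02 ± 0.16); its libraries ran from 101 to 111 CPM with siATF4-2 except replicate 4 at 175 CPM. SCAP did not pass.

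HMGCS1 fell by 0.45 ± 0.11 with siATF4-2 and by 0.35 ± 0.11 with siATF4-3, FDFT1 by 0.31 ± 0.09 and 0.24 ± 0.09, and SQLE by 0.43 ± 0.09 and 0.36 ± 0.09. MSMO1 fell with siATF4-2 (-0.60 ± 0.11) and did not pass with siATF4-3 (-0.21 ± 0.11, adjusted p = 0.0928). It did pass there without replicate 4 of every group (adjusted p = 0.00116). ACAT2 rose by 0.47 ± 0.06 and 0.34 ± 0.06, TM7SF2 by 0.59 ± 0.11 and 0.61 ± 0.11, EBP by 0.44 ± 0.07 and 0.54 ± 0.07, and TMEM97 by 0.30 ± 0.06 and 0.48 ± 0.06. These 4 genes had fallen with tunicamycin. CYP51A1 rose by 0.12 ± 0.05 and 0.21 ± 0.05, the first of which was lost without replicate 4 of every group (adjusted p = 0.125). PMVK rose with siATF4-2 (0.21 ± 0.07), DHCR7 rose with siATF4-3 (0.29 ± 0.08) and HSD17B7 fell with siATF4-3 (-0.27 ± 0.10). The PMVK call was lost without tunicamycin control replicate 2 (adjusted p = 0.0805), the HSD17B7 call without siATF4-3 replicate 2 (0.111) and the FDFT1 call with siATF4-3 without tunicamycin control replicate 4 (0.0607).

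The largest changes with the ATF4 siRNAs were in SC5D and VLDLR. SC5D had 213, 233, 202 and 256 CPM with siATF4-2 and 215, 206, 216 and 210 CPM with siATF4-3, between the DMSO and the tunicamycin libraries. It fell by 0.95 ± 0.05 and 1.05 ± 0.05 (adjusted p = 4.87e-18 and 6.09e-20). VLDLR (chr9:2621793-2654485, plus strand, hg19) had 10.2, 10.4, 8.12 and 11.8 CPM with siATF4-2 and 9.09, 7.67, 9.05 and 8.49 CPM with siATF4-3. These lay below both the tunicamycin libraries (22.1 to 30.1 CPM) and the DMSO libraries (18.8 to 21.3 CPM). It fell by 1.42 ± 0.10 and 1.66 ± 0.10. MYLIP rose by 0.49 ± 0.12 and 0.57 ± 0.12, ABCG1 fell by 0.79 ± 0.13 and 0.87 ± 0.14, and STARD4 rose by 0.33 ± 0.08 and 0.28 ± 0.09.

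Compared with each other, the ATF4 oligos differed in 2 of 28 genes, both lower with siATF4-2, and 0 were higher. Over all genes 6.2% were lower and 8.53% higher, so the lower share, 7.14% of the 28, was near the background. MSMO1 differed by -0.39 ± 0.11 (adjusted p = 0.0211) and TMEM97 by -0.18 ± 0.06 (adjusted p = 0.0366). Over other settings these p-values went up to 0.113 and 0.171. Leaving out siATF4-2 replicate 1 or 3, or siATF4-3 replicate 3 or 4, left 0 calls, and leaving out siATF4-2 replicate 2 left 1. Without replicate 4 of every group 2 were lower, MSMO1 and DHCR7, and TMEM97 was lost (adjusted p = 0.171). The median was -0.05, against 0.0105 over all genes. No gene was higher at an unadjusted p below 0.05, and DESeq2 and limma-voom also called 0 higher.

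Other genes around the pathway were described from 4 lists. Their counts are to be read against the shares of all genes that rose and fell: 34.3% and 34.7% with tunicamycin, 18.2% and 17.5% with the inhibitor, 13.1% and 13.3% with siPERK-1, 13.1% and 13.7% with siPERK-3, 28.4% and 27.2% with siATF4-2, and 31.2% and 30.7% with siATF4-3. Between the PERK oligos 2.24% were higher and 2.49% lower. The median over all genes lay between -0.0049 and 0.0066 in these 7 comparisons.

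Of 12 genes of SREBP1 and fatty acid synthesis, 11 fell and 1 rose with tunicamycin (median -0.73). FASN, fatty acid synthase, fell from 2488 to 496 CPM on average (-2.33 ± 0.14), ELOVL6, an elongase, by 1.11 ± 0.10 and FADS2, a desaturase, by 1.04 ± 0.09. With each PERK siRNA 10 of the 12 rose and none fell, with medians of 0.40 and 0.60. FASN rose by 0.95 ± 0.13 and 1.52 ± 0.13, LPIN1, a phosphatidate phosphatase, by 0.75 ± 0.10 and 1.43 ± 0.10, and FADS2 by 0.73 ± 0.09 and 1.13 ± 0.09. In the direct comparison of the oligos 7 of the 12 were lower with siPERK-1 and none higher, with LPIN1 at -0.68 ± 0.10, ELOVL6 at -0.57 ± 0.10 and FASN at -0.57 ± 0.13. With the inhibitor 2 rose and 4 fell, with SREBF1, which encodes SREBP1, at -0.70 ± 0.09; the rising share was near the background. With siATF4-2 6 rose and 3 fell and with siATF4-3 9 rose and none fell, with FASN at 1.31 ± 0.13 and 1.93 ± 0.13. The falling share with siATF4-2 was near the background.

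Of 11 genes of SREBP processing and sterol-regulated degradation, 7 rose and 2 fell with tunicamycin (median 0.27). C12orf49, a partner of the SREBP protease, rose by 0.86 ± 0.07, and ERLIN2, which serves ER degradation, by 0.71 ± 0.04. With siPERK-1 none of the 11 rose and 4 fell, and with siPERK-3 2 rose and 3 fell. MBTPS2, a protease that cuts SREBP, fell by 0.52 ± 0.06 with siPERK-1, and in the direct comparison its difference was -0.54 ± 0.06 (adjusted p = 2.35e-08). In that comparison 2 of the 11 were lower and 1 higher. With the inhibitor 3 rose and 4 fell, with siATF4-2 3 and 4, and with siATF4-3 5 and 4. The rising share with siATF4-2 was near that of all genes.

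Of 15 genes of the non-sterol branch, which uses farnesyl diphosphate for dolichol, ubiquinone and prenylated proteins, 6 rose and 3 fell with tunicamycin, a rising share near that of all genes. NUS1, a subunit of the dolichol synthase, rose by 1.11 ± 0.05, and PDSS1, which makes the ubiquinone tail, fell from 19.6 to 4.40 CPM (-2.16 ± 0.13). PDSS1 rose with both ATF4 siRNAs (1.73 ± 0.14 and 1.98 ± 0.14). With siPERK-1 2 of the 15 rose and 6 fell, with siPERK-3 1 rose and 4 fell, and 1, PDSS2, differed between these oligos (-0.37 ± 0.08). With the inhibitor 6 rose and 3 fell, with siATF4-2 4 and 5, and with siATF4-3 4 and 7. The siATF4-2 shares, the rising shares with siPERK-1 and siATF4-3, and the falling share with the inhibitor were near the background.

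Of 15 genes of cholesterol transport, esterification and the liver X receptors, 13 were tested. With tunicamycin 6 rose and 4 fell, with LIPA, the lysosomal acid lipase, at 0.97 ± 0.08 and OSBP, an oxysterol-binding protein, at 0.73 ± 0.04. SCARB1, the receptor that takes cholesterol from HDL, rose by 0.44 ± 0.06 with siPERK-1, 0.69 ± 0.06 with siPERK-3, 0.43 ± 0.06 with siATF4-2 and 0.68 ± 0.06 with siATF4-3. It was the 1 gene of the 13 that differed between the PERK oligos (-0.25 ± 0.06). With siPERK-1 3 of the 13 rose and 2 fell, with siPERK-3 3 and 1, with the inhibitor 2 and 4, with siATF4-2 1 and 7, and with siATF4-3 2 and 4. The falling shares with tunicamycin, siPERK-1 and siATF4-3 and the rising share with the inhibitor were near those of all genes.

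Exon models of 7 members share bases with those of another gene, so their values are less certain: ACAT2 (with TCP1 and LOC100129518), IDI1 (IDI2-AS1), FDPS (RUSC1-AS1), VLDLR (VLDLR-AS1), STARD4 (STARD4-AS1) and TMEM97 (IFT20) on the opposite strand, and TM7SF2 (VPS51) on the same strand. The kit marks strand, and whether the counting used it is not given in the sources used here.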

How the data were processed

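RNA-seq was done on 28 LNCaP libraries in 7 groups of 4. The authors deposited raw read counts per gene over exon models, with a gene length, in 6 tables. Per the submitters' processing notes, the build was hg19 and the tools named were featureCounts 1.5.0-p1, DESeq2 1.10.1 and TopHat2 2.1.0. Of the library columns, 20 were repeats between tables with 0 differences and were used once. From these counts, edgeR 4.0.16 (R 4.3.3) was run on all 28 libraries with a mean per group, TMM scaling, filterByExpr (minimum count 10, minimum total 15) and the robust quasi-likelihood test. The 14314 genes kept were adjusted by Benjamini-Hochberg in each of 10 comparisons, with a threshold of 0.05. Standard errors are the log2 change divided by the root of F. The scripts were tested on simulated data. CPM per kb uses the deposited length.

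Alternatives were DESeq2 1.42.0, limma 3.58.1 voom, upper-quartile scaling, no filter, the replicate number as a block, fits of the compared groups alone, and each replicate left out; leaving out replicate 4 of every group was added after seeing the data. The members, the gene lists and the tests were chosen with earlier results of these data known. The text names all members, EIF2AK3 and ATF4, and up to 3 genes of each list with the largest change among those past the threshold, where the mean log2 CPM reached 1. No set test was run. Within groups, libraries differed by more than sampling noise, so none was counted as a duplicate. The labels call the replicates independent experiments. Some genes of the lists are not reported here by name.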

Additional observations from a re-analysis of the deposited data

Results flagged for a closer look

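In 24 of 203 sets of gene and group, the highest or the lowest of the 4 values stood far from the other 3; chance gives about 1 in 20. Replicate 4 held 19 of the 24, always as the highest. In siPERK-1 replicate 4 these were IDI1 with 148.7 CPM, FDPS with 180.0, SQLE with 154.2, LSS with 131.9, CYP51A1 with 255.5 and TM7SF2 with 110.9 CPM. In siATF4-3 replicate 4 they were MVD with 40.36 CPM, FDPS with 151.1, FDFT1 with 339.1, LSS with 118.3 and DHCR7 with 216.9 CPM. In siATF4-2 replicate 4 they were INSIG1 with 174.6 CPM, FDPS with 145.7 and MSMO1 with 83.85 CPM. The inhibitor group's replicate 4 had ACAT2 at 64.95 CPM and LSS at 88.09 CPM. FDPS had 134.0 CPM in tunicamycin control replicate 4, MVD 81.95 CPM in siPERK-3 replicate 4 and MYLIP 18.43 CPM in DMSO control replicate 4.

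The other 5 values were ACAT2 in DMSO control replicate 2 (86.55 CPM, high), STARD4 in siPERK-3 replicate 1 (86.57 CPM, high), PMVK in siPERK-1 replicate 2 (41.41 CPM, low), PMVK in siATF4-3 replicate 3 (48.21 CPM, low) and HSD17B7 in siPERK-1 replicate 1 (15.19 CPM, low). The HSD17B7 value lay close to the rest of its group (15.58 to 15.62 CPM), and so did the ACAT2 value (81.72 to 82.43 CPM).

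Oligos against the same target differed by test in 19 values. Of these, 17 were lower with siPERK-1 than with siPERK-3 (60.7% of the 28 genes, against 2.49% of all genes). The other 2 were lower with siATF4-2 than with siATF4-3 (7.14%, against 6.2%), a share near the background. For siPERK-1 minus siPERK-3, the log2 difference was -0.2209 for SREBF2, -0.5309 for INSIG1, -0.8136 for HMGCS1, -0.3289 for MVK, -0.4195 for MVD, -0.2911 for IDI1 and -0.5061 for FDPS. It was -0.6118 for FDFT1, -0.3844 for SQLE, -0.4973 for LSS, -0.1822 for CYP51A1, -0.4678 for TM7SF2, -0.5744 for MSMO1 and -0.2746 for NSDHL. It was -0.4383 for HSD17B7, -0.4296 for DHCR7 and -0.3469 for STARD4. For siATF4-2 minus siATF4-3 it was -0.3887 for MSMO1 and -0.184 for TMEM97.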

How the results depend on the processing

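Over 4200 recomputed changes of single genes, 3995 kept their side of the threshold, 136 called values lost the call and 69 gained one. Among the 3995 were 103 uncalled values that changed sign, while 0 called values reversed. Among counts of called genes, 3 moved by over 1.5 times. The number lower with siPERK-1 than with siPERK-3, 17, ran from 11 to 17 with 1 replicate left out and was 14 with upper-quartile factors. The number lower with siATF4-2 than with siATF4-3, 2, ran from 0 to 2 with 1 replicate left out and was 1 with only the compared groups fitted. The number higher with the inhibitor than with siPERK-3, 2, ran from 1 to 2 and was 1 without replicate 4 of every group. The cause was not tested.

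With the replicate number as a block, counts higher and lower were 9 and 12 for tunicamycin, 16 and 3 for the inhibitor, 20 and 2 for siPERK-1, 22 and 2 for siPERK-3, 10 and 9 for siATF4-2, and 10 and 10 for siATF4-3. Between groups they were 0 and 18 for the PERK oligos, 0 and 3 for the ATF4 oligos, 4 and 11 for the inhibitor against siPERK-1, and 2 and 22 against siPERK-3. In this fit, 19 of 280 changes of single genes gained a call and 0 lost one. Shares over all genes were not computed for it, so these counts have no background beside them. Deviations of same-numbered libraries correlated above 0.1 in 15 of the 40 pairs checked, and 35 of 40 matched best with their own number. Over all same-numbered libraries of different groups the median correlation was 0.0866, against -0.0263 for other numbers. Same-numbered libraries were thus somewhat more alike. The main fit did not use the number, and what it marks was not tested.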
